A study of Mus musculus with 2 samples.

Results

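The biliary chemokines and inflammatory cytokines described here are 10 genes chosen by name from the 55415 genes of the gene table: Cxcl1, Cxcl2, Cxcl5, Cxcl16, Cx3cl1, Ccl2, Ccl20, Csf1, Csf3 and Il18. Their mRNA was measured cell by cell in biliary epithelial cells, which line the bile ducts, from mouse liver. The series holds 1 library whose genotype is given as Sox9cKO and 1 given as Sox9con, and describes the former as deficient in Sox9, a transcription factor of biliary cells, and the latter as a control. The Cre driver, the deleted exons, the age, the strain and the number of animals behind each library are not given in the sources used here. Whole cells were fixed and barcoded by repeated splitting and pooling, so that the well of the first round identifies the library.

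Chemokines are small secreted proteins that guide leukocytes along a gradient to the tissue that releases them. Cxcl1, Cxcl2 and Cxcl5 bind Cxcr2 and draw neutrophils, and Csf3 is the growth factor for which neutrophil precursors carry Csf3r. Cxcl16 and Cx3cl1 are made as membrane proteins and bind Cxcr6 and Cx3cr1. Ccl2 draws monocytes through Ccr2, Ccl20 draws lymphocytes and dendritic cells through Ccr6, Csf1 supports macrophages through Csf1r, and Il18 is released after its precursor is cut by caspases. Many of these genes are known targets of NF-kB, and injured or microbe-exposed bile ducts are known to release several of the proteins.

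A single library stands for each genotype, so the genotypes were not tested and p-values are not printed. Intervals are exact 95% intervals that cover counting error only, and the 5 Sox9cKO and 4 Sox9con first-round wells are parts of 1 library each, not replicate animals. After filtering, 2710 and 3505 cells remained, and the libraries shared 0 cell barcodes. The biliary fraction, the cells left once the endothelial-like and unnamed clusters were set aside, held 2610 Sox9cKO cells with 14405377 UMIs (a median of 5125 per cell) and 3379 Sox9con cells with 12202500 UMIs (a median of 3226). A UMI is a molecular identifier that marks 1 captured transcript, and levels are given as CPM, a gene's UMIs scaled to the total UMIs of the cells named. Krt19, a keratin of bile duct cells, stood at 932 and 1624 CPM in the Sox9cKO and Sox9con biliary fractions, and the endothelial gene Cdh5 at 0.902 and 0.820 CPM, against 1101 and 746 CPM in the endothelial-like cells. Sox9 itself stood at 122 CPM in the library labelled Sox9cKO and 145 CPM in the library labelled Sox9con. Since the deleted part of the gene is not stated, this neither checks nor contradicts the labels.

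A finer clustering of the biliary fraction set apart 15 cells, 8 of the Sox9cKO and 7 of the Sox9con library, that carried markers of mesenchymal cells. In them 10 of 12 mesenchymal markers reached 50 CPM, Col3a1 stood at 1765 CPM and Krt19 was at 0. These cells had not formed a cluster of their own at the resolution used for naming, and they lay with the biliary cells in all counts below unless stated. They matter for Ccl2, which is therefore also given without them.

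Start-site sequences were at hand for 6 of the 10 genes in the RefSeq promoter table (build GRCm38.p6, matched by symbol). Cxcl5, Cxcl16, Ccl2 and Csf3 were not matched. A match to the 10-base NF-kB consensus, on either strand, lay in the 250 bases before the start of Cxcl1, Cxcl2, Ccl20 and Csf1, and in 7.01% of all 27025 promoters in the table. No such letters were found in that window of Cx3cl1 or Il18. The 160 bases before the start are shown for the genes with a match, because these are the ones that carry it. Capitals mark the match.
Cxcl1 (chr5:90891085-90891244, plus strand): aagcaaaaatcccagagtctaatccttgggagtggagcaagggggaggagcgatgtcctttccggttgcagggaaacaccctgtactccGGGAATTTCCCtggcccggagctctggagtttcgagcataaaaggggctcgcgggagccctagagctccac
Cxcl2 (chr5:90903739-90903898, plus strand): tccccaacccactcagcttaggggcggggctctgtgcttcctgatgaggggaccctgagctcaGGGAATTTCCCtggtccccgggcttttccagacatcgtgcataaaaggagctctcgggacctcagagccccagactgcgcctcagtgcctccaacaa
Ccl20 (chr1:83116606-83116765, plus strand): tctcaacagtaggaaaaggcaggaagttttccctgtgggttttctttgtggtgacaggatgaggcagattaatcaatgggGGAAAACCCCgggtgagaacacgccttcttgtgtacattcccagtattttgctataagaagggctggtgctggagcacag
Csf1 (chr3:107760470-107760629, minus strand): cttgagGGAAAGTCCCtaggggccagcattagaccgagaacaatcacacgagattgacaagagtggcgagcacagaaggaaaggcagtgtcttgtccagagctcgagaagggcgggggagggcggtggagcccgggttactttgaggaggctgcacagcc
In Cxcl1 the consensus matched on both strands, 71 and 70 bases before the start, as overlapping copies of the same site. In Cxcl2 the matches began 97 and 96 bases before the start. Cxcl1 and Cxcl2 show the same run of capitals, whose first 10 bases were present, on either strand, in 23 promoters (0.0851%) of the table. Ccl20 and Csf1 each had 1 match, on the minus strand of the gene, 80 and 154 bases before the start. A match describes the letters and is no evidence that a factor binds there. The AP-1 word TGANTCA, searched on both strands, was in none of the 6 windows and in 6.87% of all promoters.

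Cxcl1 and Cxcl2 were the most abundant members per length of transcript. Divided by summed exon length, the levels in the biliary fraction were 417 CPM per kilobase (Sox9cKO) and 547 (Sox9con) for Cxcl1 and 463 and 438 for Cxcl2. Cxcl5 followed with 208 and 237 and Cxcl16 with 126 and 136 CPM per kilobase. Csf3 had 52.0 and 21.6, Ccl2 34.9 and 20.1, and Csf1 33.8 and 28.6 CPM per kilobase. The lowest were Ccl20 at 16.2 and 16.3, Cx3cl1 at 9.11 and 9.78, and Il18 at 8.28 and 13.8 CPM per kilobase. All other levels below are CPM with no division by length.

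Fold calls were made for the 9341 genes that reached 200 UMIs when the biliary cells of both libraries were pooled. Of these, 206 (2.21%) were at least 2-fold higher in the Sox9cKO library and 165 (1.77%) at least 2-fold lower. Among the 10 members, which all had at least 200 UMIs, 1 was at least 2-fold higher (Csf3) and none at least 2-fold lower. When each Sox9cKO well was set against each Sox9con well, 7.5% of these genes were higher in every one of the 20 pairs and 8.32% were lower in every pair. Csf3 was again the only member higher in all pairs, and no member was lower in all. The median log2 ratio of the members was -0.06 (4 higher, 6 lower), beside -0.07 over all genes compared. With the scaling factors of DESeq2 in place of UMI totals, the median over all genes shifted by 0.15, so that small ratios are read against that shift.

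**Figure D1:**
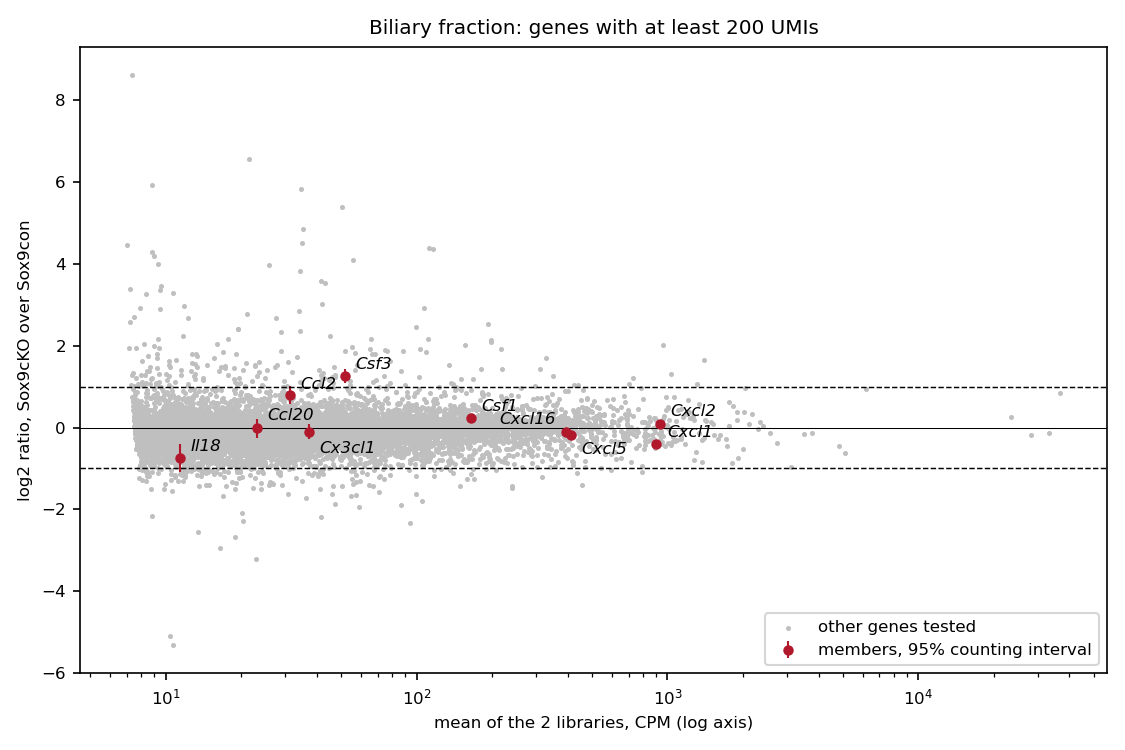
Log2 ratio of the Sox9cKO over the Sox9con biliary fraction (vertical axis) against the mean level of the 2 libraries in CPM (log axis) for the 9341 genes with at least 200 UMIs; red points are the members with 95% counting intervals, and dashed lines mark a 2-fold difference. Csf3 lies above the upper line at 1.27, and the other 9 members lie between the lines.

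Among the neutrophil attractants, Cxcl1 differed most. Its CPM in the wells was 867, 618, 874, 813 and 817 in the Sox9cKO library and 682, 1140, 1264 and 1186 in the Sox9con library. Well A12, at 618, stood below the other Sox9cKO wells and well D9, at 682, below the other Sox9con wells, so that the 2 sets overlapped. In sum the level was 781 CPM (95% interval 767 to 796) in the Sox9cKO library and 1026 (1008 to 1044) in the Sox9con library, a log2 ratio of -0.39 (-0.43 to -0.36). In 16 of 20 well pairs, and in each of the 8 sublibraries that the cell names mark, the Sox9cKO value was the lower one.

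Cxcl2 differed less in level. Its well values were 1289, 838, 1037, 873 and 878 CPM in the Sox9cKO library and 726, 942, 1129 and 943 in the Sox9con library, with 10 of 20 pairs higher. The log2 ratio of 0.08 (0.04 to 0.12) turned to -0.0099 without well A11 and to -0.050 without well D9. Combined within clusters it was 0.26, and in thinned cells a Cxcl2 UMI was seen in 47.4% (45.4 to 49.4) of Sox9cKO and 41.0% (39.2 to 42.8) of Sox9con cells. Of the 50-base words in Cxcl2 transcripts, 5.84% also occur in Cxcl3, and how reads shared between them were counted is not given in the sources used here.

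Cxcl5 stood at 527, 335, 444, 334 and 351 CPM in the Sox9cKO wells and at 293, 486, 618 and 461 in the Sox9con wells. These sets overlapped along their whole length, and the log2 ratio was -0.19 (-0.24 to -0.13). Its share of cells went the other way from its level: with each cell thinned to 2000 UMIs, a Cxcl5 UMI was seen in 30.3% (Sox9cKO) and 25.2% (Sox9con). No order of the libraries is read from it.

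Csf3 was higher in every Sox9cKO well than in every Sox9con well. The Sox9cKO wells held 83.9, 70.9, 78.2, 64.8 and 73.1 CPM and the Sox9con wells 23.5, 24.3, 43.0 and 36.9. The lowest Sox9cKO well thus lay above the highest Sox9con well. The sums were 1058 and 372 UMIs, or 73.4 (69.1 to 78.0) and 30.5 (27.5 to 33.7) CPM, with a log2 ratio of 1.27 (1.10 to 1.44) and a range over pairs from 0.59 to 1.83. In thinned cells, 7.25% (6.26 to 8.34) and 3.42% (2.78 to 4.16) had a Csf3 UMI. When the libraries were compared within clusters and the clusters combined by the Mantel-Haenszel ratio, the log2 ratio was 0.45. In the endothelial-like cells Csf3 stood at 99.0 CPM (64.1 to 146) on 25 UMIs in the Sox9cKO library and 40.2 on 14 UMIs in the Sox9con library, with intervals that overlap. These UMIs came from only 6 and 5 cells. Well B2 held 11 of the 25 and well D12 11 of the 14, so no order of the libraries is read from them.

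Cxcl16, a membrane chemokine, was seen in more cells than any other member before thinning. Its wells held 343, 336, 412, 443 and 373 CPM in the Sox9cKO library and 444, 339, 422 and 431 in the Sox9con library. The ranges nearly coincided, and the log2 ratio of -0.11 (-0.17 to -0.05) turned to 0.036 with DESeq2 scaling. A Cxcl16 UMI was seen in 72.4% of Sox9cKO and 63.2% of Sox9con cells before thinning. If the same UMIs were spread in proportion to each cell's depth, 81.9% and 71.9% of cells would hold one. The gene overlaps Zmynd15 on the other strand, and whether the counting used strand is not given in the sources used here.

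Cx3cl1 was low in every well, with 28.8, 35.0, 30.6, 33.8 and 49.0 CPM in the Sox9cKO library and 33.2, 36.8, 43.9 and 42.9 in the Sox9con library. The log2 ratio was -0.10 (-0.28 to 0.08), an interval that includes 0, and it was 0.045 with DESeq2 scaling.

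Ccl2, the monocyte attractant, stood at 52.8, 20.6, 49.4, 39.8 and 46.2 CPM in the Sox9cKO wells and at 9.97, 29.8, 23.4 and 32.0 in the Sox9con wells. All Sox9cKO wells other than A12 lay above all Sox9con wells. The sums were 572 and 279 UMIs, and the log2 ratio was 0.80 (0.59 to 1.01), with 17 of 20 pairs and 7 of 8 sublibraries higher. The 15 cells with mesenchymal markers held 61 of these UMIs, 6 in the Sox9cKO and 55 in the Sox9con library, which is 19.7% of the Ccl2 UMIs of the latter. Their Ccl2 level was 1122 CPM (858 to 1441), far above the biliary clusters. Without them Ccl2 stood at 39.4 and 18.4 CPM, the log2 ratio was 1.10 (0.87 to 1.33), past 2-fold, and 17 of 20 pairs were higher. The ratio combined within clusters was -0.79 with these cells and 0.29 without them. Leaving out well A12 gave 1.03 and leaving out D9 gave 0.46. The gene overlaps Gm17268 on the other strand.

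Ccl20 showed no difference in sum beyond counting error. The Sox9cKO wells held 36.3, 18.0, 32.8, 16.6 and 16.9 CPM and the Sox9con wells 12.3, 30.8, 31.8 and 23.4, and the log2 ratio was -0.01 (-0.25 to 0.22). Combined within clusters the ratio was -0.76, and in the Msln cluster described below it was -1.23 (-1.82 to -0.64).

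Csf1, the macrophage growth factor, held 114, 166, 152, 215 and 230 CPM in the Sox9cKO wells and 183, 111, 89.7 and 193 in the Sox9con wells. The sets overlapped, with 14 of 20 pairs higher and a log2 ratio of 0.24 (0.16 to 0.33). In cells thinned to 2000 UMIs the ratio was 0.05.

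Il18 was the lowest member, with 123 and 174 UMIs. Its wells held 8.48, 6.52, 7.38, 11.3 and 9.66 CPM in the Sox9cKO library and 7.67, 15.7, 19.6 and 17.5 in the Sox9con library, so that D9 alone of the Sox9con wells fell into the Sox9cKO range. The log2 ratio was -0.74 (-1.08 to -0.40), and -1.02 without D9, with 17 of 20 pairs and all 8 sublibraries lower. Il18 overlaps Bco2 and Tex12 on the other strand.

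**Figure D2:**
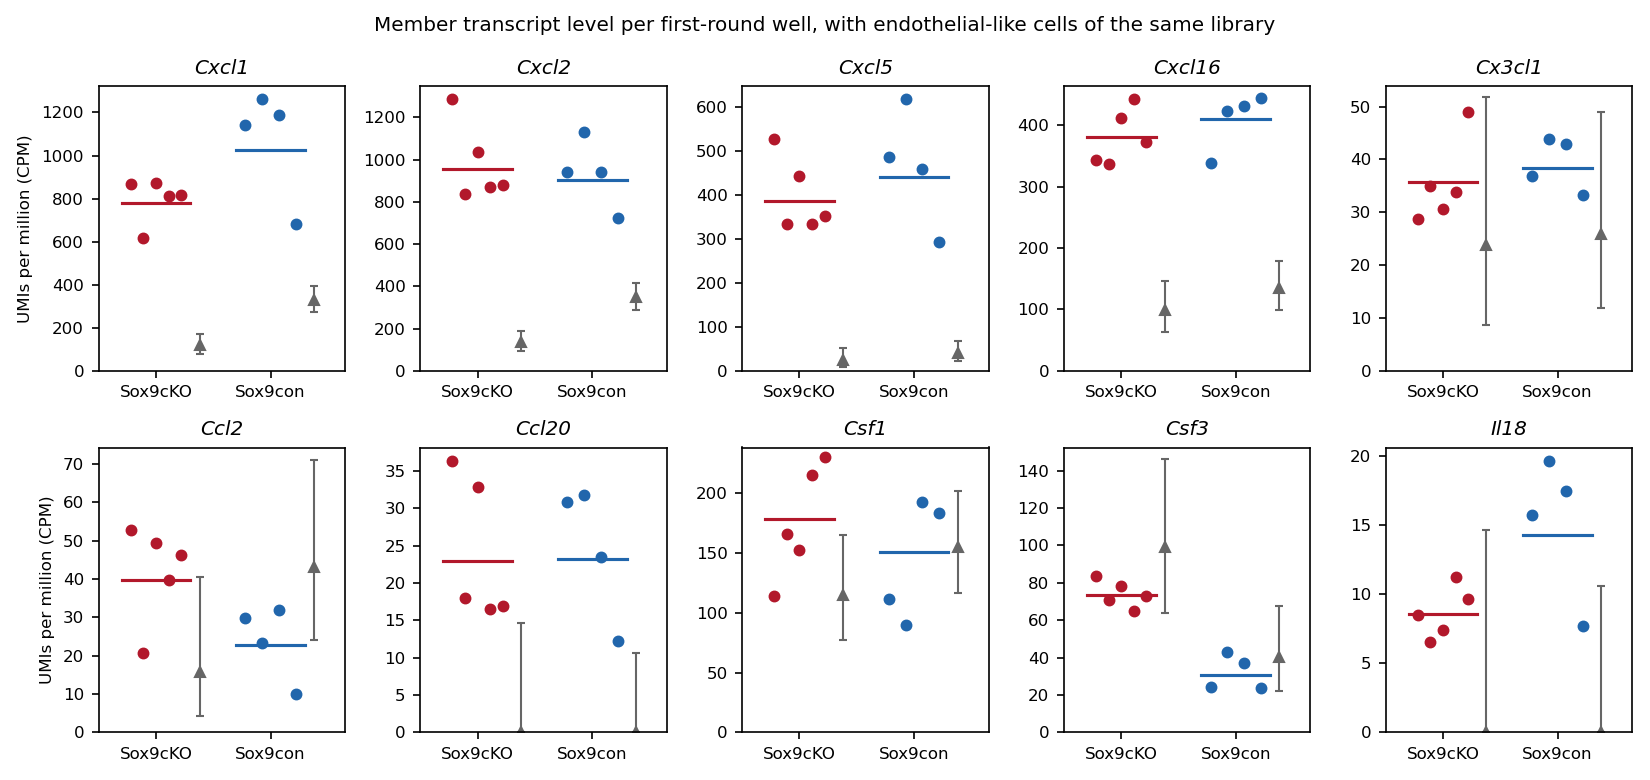
Level of each member in CPM (vertical axes, each starting at 0) in the biliary fraction of the 5 Sox9cKO wells (red) and 4 Sox9con wells (blue); horizontal lines are the levels of the whole biliary fraction of each library, and grey triangles are the endothelial-like cells of that library with 95% Poisson intervals. Csf3 is the panel in which the sets of wells do not overlap, and Ccl20 and Il18 were at 0 in the endothelial-like cells.

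Well depth and the mix of cells moved with these levels. In each library the well with the deepest cells had the lowest Cxcl1: A12 had a median of 6479 UMIs per cell and D9 a median of 4344. D9 also held fewer cells of the Car4 cluster described below (11.8%, against 26.4% to 37.0% in the other Sox9con wells) and more of the Grap2 cluster (31.5%, against 18.9% to 22.1%). The part of depth and cell mix in the well values was not tested.

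Endothelial-like cells served as the neighbouring cell type, 83 in the Sox9cKO and 115 in the Sox9con library. Transcripts released by broken cells can reach other barcodes, so the biliary markers seen in these cells give a scale. The median of 15 biliary markers was 11.1% (Sox9cKO) and 9.99% (Sox9con) of its biliary CPM. Cxcl5 lay near that scale, with 6 and 14 UMIs, or 6.14% and 9.11% of its biliary level. Cxcl1 reached 15.2% and 32.1% and Cxcl2 14.1% and 38.6%. In CPM, the endothelial-like cells held 119 (80.2 to 170) and 330 (272 to 396) for Cxcl1. For Cxcl2 they held 135 (93.3 to 188) and 350 (291 to 418). Both were higher in the Sox9con library, while Cxcl2 in the biliary fraction was slightly higher in the Sox9cKO library. The endothelial-like values overlapped by well: Cxcl1 and Cxcl2 stood at 270 and 232 CPM in Sox9cKO well A11 and at 234 and 154 in Sox9con well D9. No order of the libraries is read from them. Cxcl16 reached 26.1% and 32.9%, and Cx3cl1 66.4% and 67.2% on only 6 and 9 UMIs. Csf1 reached 64.4%, at 115 CPM (76.9 to 165), and 103%, at 155 CPM. Csf3 reached 135% and 132%, on UMIs from only 6 and 5 cells, and in both libraries its interval in these cells included the biliary level. Ccl2 had 4 UMIs (39.9%) and 15 UMIs (188%). Endothelial cells are themselves known to make several of these factors, and the part of free RNA in these levels was not tested. Ccl20 and Il18 had 0 UMIs in both libraries. For Ccl20 a count of 0 allows up to 11.9 and 8.61 CPM, both below its biliary levels of 23.0 and 23.2 CPM. For Il18, at 8.54 and 14.3 CPM in the biliary fraction, the limits are the same and only the Sox9con limit lies below the biliary level.

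The biliary fraction was then divided into 9 clusters that were built without the members, the other chemokines and cytokines, and Sox9. They are named by their leading genes. Several belonged nearly to 1 library: the Fst and Cyp7b1 cluster had 799 Sox9cKO and 8 Sox9con cells, the G6pc and Hsph1 cluster 154 and 0. The Car4 and Chil4 cluster had 66 and 900 cells, the Grap2 and Hilpda cluster 35 and 781, and the Adgrv1 cluster 72 and 665. The Ryr1 cluster had 61 and 183 cells. All 15 mesenchymal-marker cells lay in the Fst cluster, where they were 8 of the 799 Sox9cKO and 7 of the 8 Sox9con cells, so that 791 and 1 cells remain without them. The 3 clusters with at least 100 cells of each library were those led by Msln (910 and 294), Muc6 (373 and 332) and Slc28a2 with Ltf (140 and 216). The last is called the Ltf cluster below, but its Sox9con cells held almost no Ltf. Ltf stood at 257 CPM (240 UMIs) in its Sox9cKO cells and at 2.79 CPM (3 UMIs) in its Sox9con cells. At the finer resolution the cluster with the highest CPM was a small one for several members: the 15 mesenchymal-marker cells for Cxcl1, Ccl2 and Cx3cl1, the 33-cell group of the Ltf cluster for Cxcl5 and Csf1, and a group of 24 cells for Cxcl2. The peaks given below are those of the 9 clusters and depend on that resolution. Since cluster and library largely coincide, what follows describes cells, and a cluster of mostly 1 library may be that library and not a cell type.

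The Grap2 and Fst clusters, 27.1% of the biliary cells, held 55.9% of Cxcl1, 55.0% of Cxcl2, 63.2% of Csf1, 59.0% of Csf3, 59.3% of Ccl20 and 65.7% of Ccl2 UMIs. Together they had 30.7% of all biliary UMIs, which is the share an evenly spread gene would show. Cxcl16 (32.5%), Cx3cl1 (33.3%) and Il18 (29.6%) were close to that share. Cxcl5 lay between, with 48.6%. For Csf3 and Ccl2 the excess lay in the Fst cluster alone, with 47.7% and 57.6% of their UMIs. The Grap2 cluster held 11.3% and 8.11% of them, beside 11.7% of all biliary UMIs. The Ccl2 share of the Fst cluster includes the 61 UMIs of the mesenchymal-marker cells.

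Cxcl1 ranged 16.4-fold, from 1864 CPM (1816 to 1913) in the Grap2 cluster to 114 (99.7 to 130) in the Ltf cluster. The order between was Fst at 1481, Adgrv1 at 1215, Car4 at 936, Msln at 606, Ryr1 at 388, G6pc at 166 and Muc6 at 129 CPM, and the intervals of Muc6 and Ltf overlap. Cxcl2 ranged 30.9-fold, from 1815 CPM in the Grap2 cluster to 58.8 in the G6pc cluster. Cxcl5 ranged 62.7-fold between the same clusters, from 737 to 11.8 CPM, and stood at 730 CPM in the Car4 cluster.

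Cxcl5 did not follow Cxcl1 everywhere. In the Adgrv1 cluster, which follows Grap2 and Fst in Cxcl1, there were 6.82 Cxcl5 UMIs (5.90 to 7.84) per 100 of Cxcl1. In the Grap2 and Fst clusters there were 39.5 and 40.4 per 100, in Car4 78.0 and in Msln 70.8. The G6pc and Ryr1 clusters resembled the Adgrv1 cluster, with 7.10 and 8.78 per 100. In the Ltf cluster the libraries differed: Cxcl5 exceeded Cxcl1 in the Sox9cKO cells, at 323 per 100 (269 to 389), but in the Sox9con cells there were 73.3 per 100 (50.8 to 105). The G6pc, Adgrv1 and Ryr1 clusters also had the highest summed level of 26 immediate early and dissociation-induced genes, with 22116, 15848 and 10764 CPM, against 3637 to 5349 in the other 6. The G6pc cluster, highest in these genes, was lowest in Cxcl2, Cxcl5, Cxcl16 and Cx3cl1. The part of handling in these levels was not tested.

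**Figure D3:**
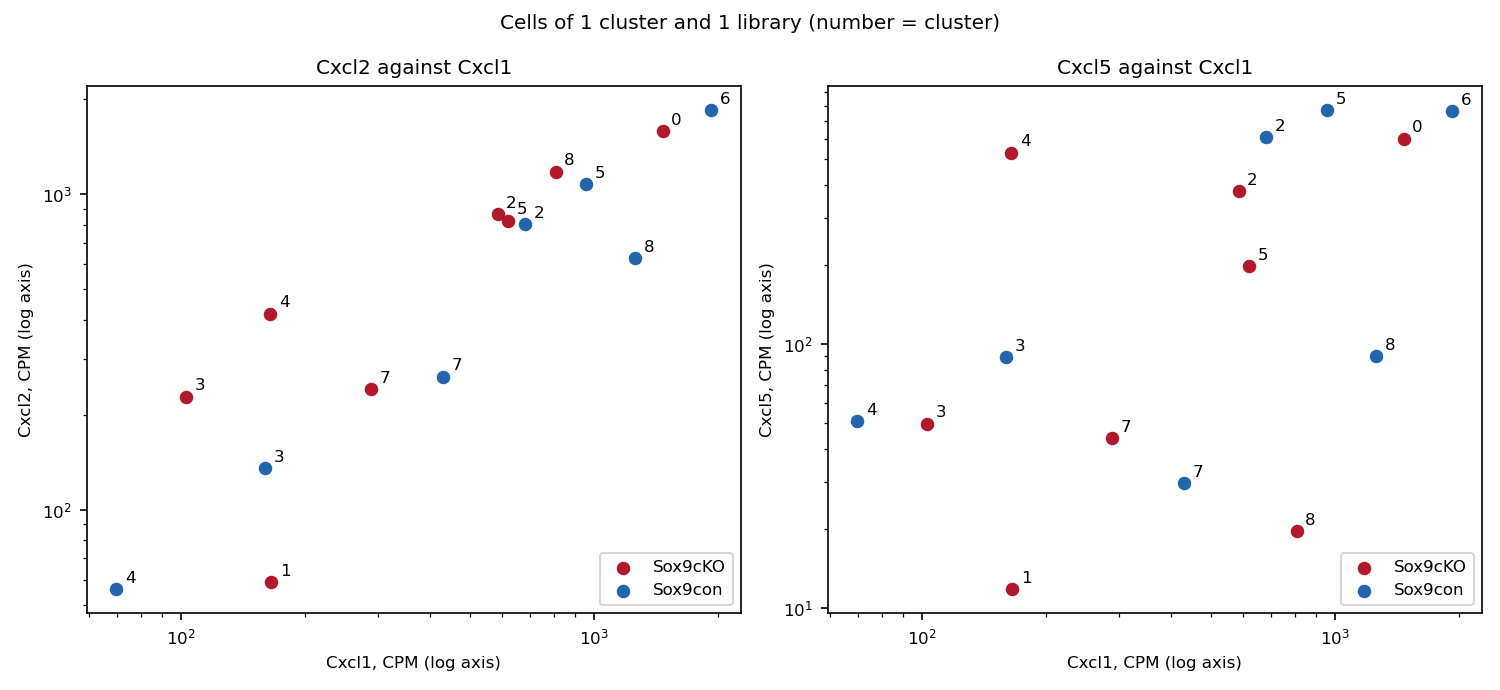
Cxcl2 (left) and Cxcl5 (right) against Cxcl1, in CPM on log axes, in the 15 combinations of a biliary cluster and a library with at least 50 cells; numbers are clusters (0 Fst, 1 G6pc, 2 Msln, 3 Muc6, 4 Ltf, 5 Car4, 6 Grap2, 7 Ryr1, 8 Adgrv1). Cxcl2 rises along with Cxcl1, with a Pearson correlation of 0.88, while for Cxcl5 (0.50) the points of clusters 7 and 8 lie low and that of cluster 4 in the Sox9cKO library lies high.

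Csf3 was concentrated in the Fst cluster, with 134 CPM (125 to 145), and stood at 62.6 in the Msln, 51.9 in the Grap2 and 41.7 in the Car4 cluster. It had 0 UMIs in the 154 cells of the G6pc cluster, and its level in the Fst cluster was at least 41.9-fold higher than 3 UMIs in those cells would give. The Fst cluster held 64.3% of the Csf3 UMIs of the Sox9cKO library. Outside it, and without the mesenchymal-marker cells, Csf3 stood at 40.4 CPM (36.4 to 44.7) in the Sox9cKO and 30.4 (27.4 to 33.6) in the Sox9con library. Outside the Fst cluster the 2 libraries were closer in Csf3, though these intervals do not overlap. The Sox9con library all but lacks that cluster, where Csf3 is highest, so leaving it out could lower only the Sox9cKO level. The Grap2 cluster, mostly of Sox9con cells, was kept, and the part of the cluster mix in the ratio was not tested.

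Ccl2 was lower outside the Fst cluster by a wider margin. With the mesenchymal-marker cells left out, 75.8% of the Sox9cKO library's Ccl2 UMIs lay in 791 Fst-cluster cells, at 85.6 CPM (77.7 to 94.0). The remaining Sox9cKO cells held 14.6 CPM (12.3 to 17.3) and the Sox9con cells outside the cluster 18.4 (16.1 to 21.0), and these intervals overlap. The other 8 clusters ranged from 9.05 CPM in Muc6 to 28.0 in Ryr1. No other member came closer in this way. Outside the Fst cluster, again without the mesenchymal-marker cells, Cxcl1 stood at 411 (Sox9cKO) and 1020 CPM (Sox9con). Cxcl2 stood at 616 and 907 CPM and Csf1 at 100 and 151, the other order from the whole fraction. Cxcl5 stood at 272 and 442 CPM, Ccl20 at 12.0 and 23.2 and Il18 at 8.02 and 14.3. Cxcl16 stood at 373 and 411 CPM and Cx3cl1 at 35.1 and 38.5. Leaving out the Fst cluster changes almost only the Sox9cKO levels, and the Grap2 cluster, mostly of Sox9con cells, was kept here. The orders outside the Fst cluster follow in part from that choice.

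Csf1 peaked in the Grap2 (371 CPM) and Fst (323 CPM) clusters and was lowest in the Muc6 cluster, at 13.4 CPM, a 27.6-fold range. Ccl20 had the same leading clusters, with 46.7 and 43.2 CPM, and was lowest in the Adgrv1 cluster, at 3.53 CPM. Il18 ran differently: it was highest in the Ryr1 (29.2 CPM, 18.7 to 43.5), G6pc (21.4) and Car4 (18.4) clusters and lowest in the Msln cluster (6.35). Cxcl16 and Cx3cl1 ranged only 3.02-fold and 2.58-fold.

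**Figure D4:**
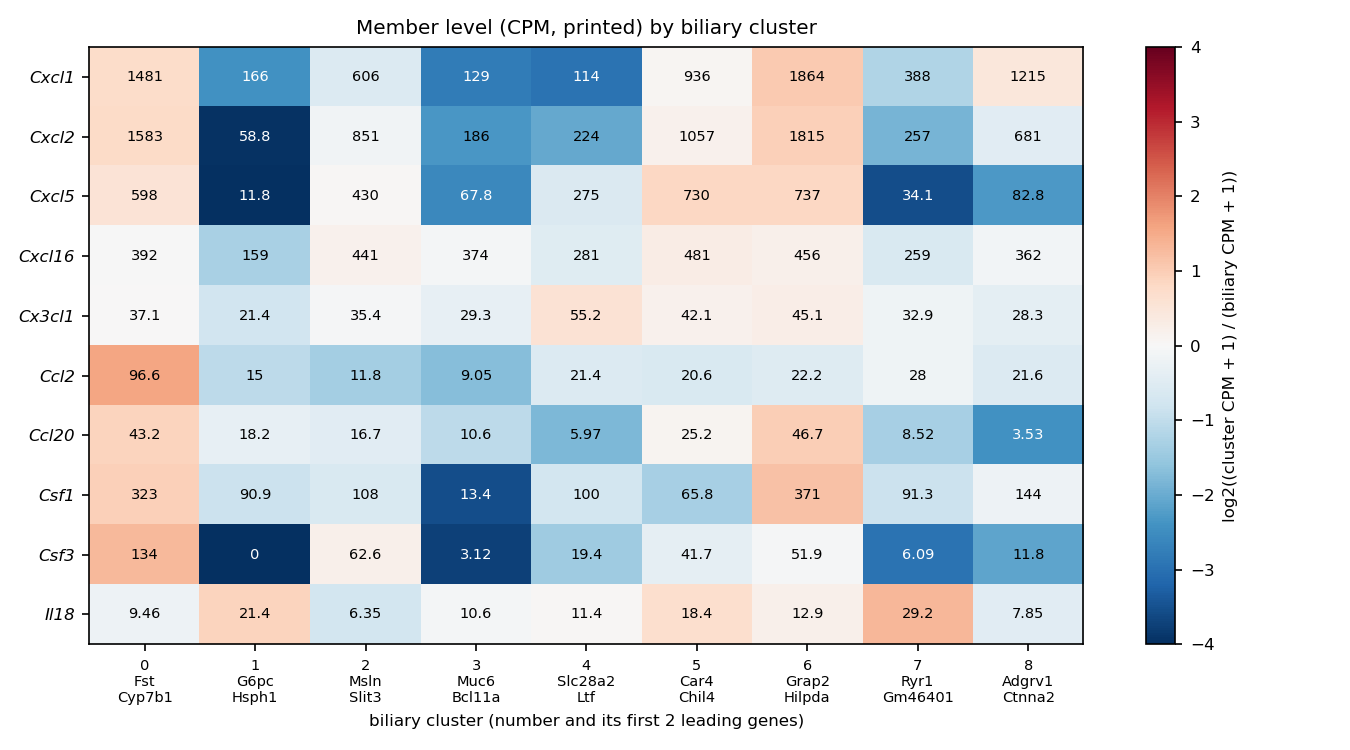
Level of each member (rows) in the 9 biliary clusters (columns, with their first 2 leading genes), printed in CPM; colour is the log2 ratio of cluster to whole biliary fraction after adding 1 CPM to each. Clusters 0 and 6 are above the biliary level for Cxcl1, Cxcl2, Cxcl5, Ccl20 and Csf1, and cluster 1 is below it for every member except Il18.

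In the 3 clusters with cells of both libraries, the members differed between libraries in unlike ways. In the Msln cluster Cxcl5 was lower in the Sox9cKO cells (379 against 608 CPM, log2 ratio -0.68, -0.80 to -0.56) and, as in the whole fraction, Csf3 was higher (66.8 against 47.5 CPM, 0.49, 0.11 to 0.90). In the Muc6 cluster Cxcl1 was lower (103 against 160 CPM, -0.64) and Cxcl2 higher (228 against 135 CPM, 0.75). In the Ltf cluster the differences were largest: Cxcl5 stood at 531 and 51.2 CPM (3.36, 2.97 to 3.80), Csf1 at 193 and 18.6 CPM (3.34) and Cxcl2 at 418 and 55.8 CPM (2.89). Cxcl1 stood there at 165 and 69.8 CPM (1.23, 0.83 to 1.66), the other order from the Muc6 cluster and the whole fraction. In all 5 Sox9cKO wells the Cxcl5 level of this cluster, 319 to 691 CPM, was above that in all 4 Sox9con wells, 20.8 to 84.9 CPM. The share of all genes that separate the wells within this cluster was not computed, so this is a description of Cxcl5 only.

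The Ltf cluster was, however, not the same mixture of cells in both libraries. At the finer resolution most of its cells fell into groups of 216 cells (26 Sox9cKO and 190 Sox9con), 87 cells (86 and 1) and 33 cells (24 and 9). In the group of 216 cells Cxcl5 stood at 37.6 and 51.9 CPM (log2 ratio -0.46, -1.98 to 0.76) and Cxcl2 at 81.4 and 28.6 CPM (1.48, 0.43 to 2.51). The 86 Sox9cKO cells of the second, which carried Ltf at 445 CPM, had Cxcl5 at 445 CPM. In the group of 33 cells Cxcl5 stood at 1088 CPM in the 24 Sox9cKO cells and 58.6 CPM in the 9 Sox9con cells (4.14, 2.84 to 6.10, on 255 and 4 UMIs). There Csf1 stood at 521 and 132 CPM (1.95, 1.01 to 3.14) and Cxcl2 at 1067 and 366 CPM (1.53, 0.95 to 2.20). Cxcl1 stood at 414 and 425 CPM in the same cells (-0.04, -0.65 to 0.61). Both groups with cells of each library thus had more Cxcl2 in the Sox9cKO cells, while Cxcl5 was higher there in the group of 33 and not beyond counting error in the group of 216. The mix of groups also differed between the libraries.

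**Figure D5:**
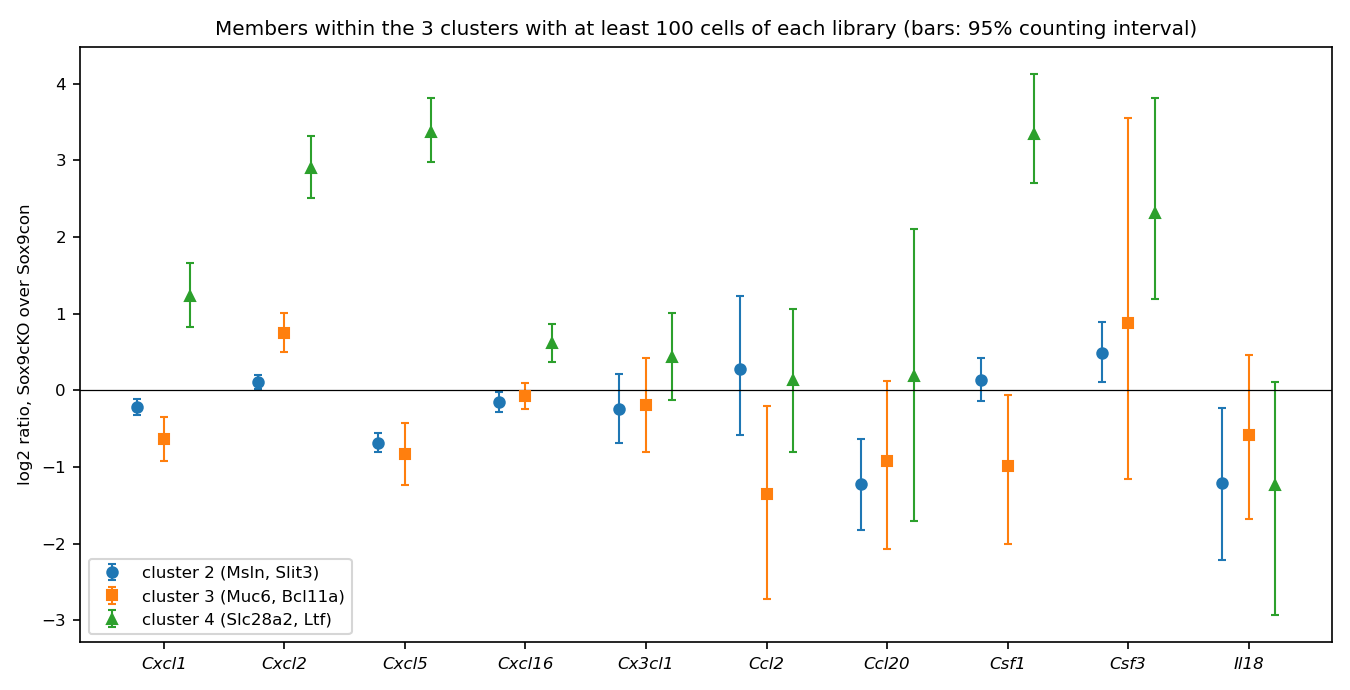
Log2 ratio of the Sox9cKO over the Sox9con library for each member within the 3 clusters that hold at least 100 cells of each library, with 95% counting intervals. The Ltf cluster (triangles) lies above 2 for Cxcl2, Cxcl5, Csf1 and Csf3, and the Msln and Muc6 clusters lie between -1.35 and 0.87 for every member.

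The number of cells that held 50% of the UMIs differed between members. The cells with the most Ccl2 reached 50% of its UMIs with 61 cells (1.02%), those with the most Ccl20 with 86 cells, Csf3 with 89 and Il18 with 119. Cxcl1 needed 592 cells (9.88%) and Cxcl16 962 cells (16.1%). These numbers depend on the UMI total, 297 for Il18 and 23781 for Cxcl1, so a low member needs few cells however it is spread. The highest count in a single cell was 77 UMIs for Cxcl2, 48 for Cxcl1 and 46 for Cxcl5, against 5 for Il18. Csf3 was seen in 11.6% of Sox9cKO and 4.32% of Sox9con cells before thinning, where an even spread of its UMIs would give 32.1% and 10.3%. Il18, at 4.21% and 4.65%, was close to its even spread of 4.58% and 4.99%.

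The same cells often held several members. Among Sox9cKO cells thinned to 2000 UMIs, a Cxcl2 UMI was present in 70.2% (67.5 to 72.8) of cells with a Cxcl1 UMI and in 26.8% (24.5 to 29.3) of cells without. In the Sox9con library the shares were 60.8% and 18.9%. A Cxcl1 UMI was present in 83.8% and 81.2% of cells with Csf3, against 44.5% and 51.7% of cells without. Of the 90 ordered pairs of members, 40 in the Sox9cKO and 39 in the Sox9con library had a share that was higher beyond both intervals, and 0 had a lower one. None of the 34 pairs with Cx3cl1 or Il18 was among them in either library. Within clusters, the Cxcl1 and Cxcl2 pair stood apart in 10 of 12 combinations of cluster and library, for example with 79.3% against 35.2% in the Sox9con cells of the Grap2 cluster. The exceptions were both libraries of the Ltf cluster. Other pairs read within clusters overlapped more often. In the Sox9cKO cells of the Fst cluster, Cxcl5 was seen in 47.9% of cells with Cxcl1 and 44.1% without, with overlapping intervals. In the Sox9con cells of the Grap2 cluster these shares, 44.8% and 30.3%, stood apart. The part of the cluster mix in the 40 and 39 pairs was not tested. At this depth, 16.2% of Sox9cKO and 18.6% of Sox9con cells had a UMI of none of the members, and 21.0% and 19.5% had at least 4 of them. Cxcl1, Cxcl2 and Cxcl5 were all present in 16.1% and 14.2%.

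Across the 15 combinations of cluster and library with at least 50 cells, each member was set against 6705 genes by the Pearson correlation of log2(CPM + 1). These points share libraries and depth, and the values are a description. The genes most like Cxcl1 were Ier3 (0.97), Lims1 (0.94) and Fbxw11 (0.92). Those most like Cxcl2 were Cep83 (0.95), Zc3h12a (0.94), which encodes an RNase that degrades cytokine transcripts, and Cxcl3 (0.93). Cxcl5 ran with Relch (0.92), Csf3 (0.89) and Ifngr2 (0.88), and Csf3 with Cxcl5 (0.89), Slc9a8 (0.88) and Peak1 (0.85). Cxcl16 ran with Pabpc1, Clic4 and Mphosph10 (0.93 to 0.92), and Csf1 with Denn2b (0.93), Rasal1 (0.92) and Dtx3l (0.89). For Ccl2 (Cep170, 0.79), Ccl20 (Zfp148, 0.78) and Cx3cl1 (Zfp809, 0.87) the best values were lower. Il18 ran with 2210016F16Rik (0.91), and its lowest value with another member was -0.41 with Cxcl2.

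The receptors of the members were mostly near 0 in the biliary fraction. Over both libraries Cxcr1 and Ccr6 had 0 UMIs, Ccr2 had 1, Cxcr6 had 3, Cxcr2 had 5 and Csf3r had 16. Il18rap had 17, Ackr2 had 2 and Ackr1 had 0. Cx3cr1, the receptor of Cx3cl1, had 163 and 271 UMIs, and 277 of these 434 lay in the Ryr1 cluster, at 337 CPM against at most 16.5 CPM in the other 8. The log2 ratio of Cx3cr1 was -0.97 (-1.26 to -0.69), and the Ryr1 cluster had 61 Sox9cKO and 183 Sox9con cells. The endothelial-like cells held Cx3cr1 at 115 and 103 CPM, on 29 and 36 UMIs. Endothelial markers summed to 319 CPM in the Ryr1 cluster, against 20.3 to 60.2 in the other 8. The part of the cluster mix in the ratio was not tested. Il18r1 encodes a chain of the Il18 receptor. Its 206 and 50 UMIs gave a log2 ratio of 1.79 (1.35 to 2.28), with its highest level in the Ltf cluster, at 56.7 CPM. Of the 206 Sox9cKO UMIs, 108 came from the 24 Sox9cKO cells of the 33-cell group described above, which held Il18r1 at 461 CPM and Ltf at 21.3 CPM. The 86 Sox9cKO cells rich in Ltf had 0 Il18r1 UMIs. Il18bp, a secreted decoy of Il18, stood at 13.1 and 14.0 CPM.

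Csf1r had 479 and 273 UMIs (log2 ratio 0.57, 0.35 to 0.79), highest in the G6pc cluster at 103 CPM. It is also a macrophage marker, so the other 11 markers of that list were read beside it. C1qa and Clec4f were at 0, Cd68 stood at 4.58 and 6.31 CPM, and each of the other 8 had at most 6 UMIs. The 12 summed to 38.4 and 29.8 CPM. Of the 575 biliary cells with a Csf1r UMI, 4.70% had a UMI of another macrophage marker, against 2.12% of the cells without. A Csf1 UMI was seen in 36.5% and 23.3% of them, with median depths of 5193 and 3799 UMIs. The 9 neutrophil markers summed to 0.694 and 0.820 CPM.

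Genes of the same pathways were read from 7 lists, chosen with earlier results of these data known. Of 26 other chemokines only 5 reached 200 UMIs, from Cxcl12 at 1.95 (12.1 and 3.11 CPM) to Cxcl10 at -0.85 (47.8 and 86.1 CPM). Cxcl10 stood at 788 and 1827 CPM in the endothelial-like cells. Of 26 other cytokines 10 reached 200 UMIs, with a median of 0.52. Among these, 4 were at least 2-fold higher in the Sox9cKO library, as were 2.21% of all genes compared. Ltb, a lymphotoxin subunit, was the highest at 1.86 (45.1 and 12.4 CPM) and Mif the lowest at -0.47. Ltb and Cxcl12 were highest in the Fst and G6pc clusters, which hold nearly only Sox9cKO cells. Ltb stood there at 103 and 46.0 CPM, against 2.50 to 32.8 in the other biliary clusters. Cxcl12 stood there at 24.4 and 37.4 CPM, against at most 6.09 in the others. The part of the cluster mix in these ratios was not tested. Il34, the other ligand of Csf1r, stood at 102 and 92.2 CPM, and Il33 had 60 and 47 UMIs, too few to enter.

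Of 23 NF-kB factors and feedback genes 22 reached 200 UMIs, none was 2-fold apart, and the median was -0.06. Within the list the feedback inhibitors went different ways: Nfkbia, which holds NF-kB in the cytoplasm, stood at 835 and 1028 CPM (log2 ratio -0.30, -0.34 to -0.26) and Tnfaip3, which edits ubiquitin in the pathway that activates it, at 410 and 262 CPM (0.65, 0.58 to 0.71). Nfkbiz had a log2 ratio of 0.06 and Icam1 of -0.06. The extremes were the kinase Ikbke at 0.98 and Nfkbib at -0.44. Of 24 sensing receptors and adaptors 17 reached 200 UMIs, with a median of -0.25. Cd14, the co-receptor for lipopolysaccharide, stood at 313 and 443 CPM (-0.50), Tlr4 at 85.4 and 106 CPM (-0.31) and Tlr2 at 12.8 and 15.7 CPM (-0.29). Tnfrsf1b, a TNF receptor, was the highest at 1.17, and Tlr3 the lowest at -0.69. Tnfrsf1b was higher in all 20 well pairs, as were 7.5% of all genes compared.

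Among 16 genes of Il18 processing and of the shedding of membrane chemokines, 9 reached 200 UMIs and none was 2-fold apart. Casp1, which cuts the Il18 precursor, had only 11 and 16 UMIs, while Casp4 stood at 219 and 168 CPM (0.38). Adam10 and Adam17, the proteases that release Cxcl16 and Cx3cl1, had log2 ratios of 0.33 and 0.20. Both were higher in all 20 well pairs, as were 7.5% of all genes compared. Timp3, an inhibitor of Adam17, was the lowest at -0.89 (99.5 and 184 CPM). Of 26 immediate early and dissociation-induced genes 25 reached 200 UMIs, with a median of -0.30, from Dusp1, the highest, at 0.35 to Gadd45b, the lowest, with 49.1 and 98.4 CPM. Fos stood at 0.08 and Atf3 at -0.28.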

How the data were processed

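Transcripts were counted in 1 library per genotype. The authors deposited whole-number UMI counts per gene and cell, per the file headers, with gene and cell tables; fixed cells were barcoded with a split-pool kit using hexamer and oligo(dT) primers, per the labels' protocols. The cell tables also hold a score in which the authors extrapolated transcripts per cell, per the file headers, which was not used. The genome build is GRCm39, per the submitters' processing notes; the aligner, the annotation and the calling of cells are not given in the sources used here.

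Cells with at least 500 genes, 1000 UMIs and at most 15% mitochondrial UMIs were kept. Scrublet, through scanpy 1.11.5, marked 5 of 6362 cells (0.0786%), too few for it to have worked. Clustering used 2000 variable genes, 30 components, 15 neighbours and Leiden resolution 0.5, without the members, the other chemokines and cytokines, and Sox9. Clusters were named from 10 marker lists at 50 CPM, with at least 3 markers. Log2 ratios are of CPM, with 0.5 counts added; intervals are Poisson, Clopper-Pearson or conditional binomial. Fold calls used genes with at least 200 UMIs. TMM factors of edgeR 4.0.16 and size factors of DESeq2 1.42.0 served as scaling alternatives only. Named genes are the members, their receptors, the extremes of each list, 15 fixed context genes and the 3 genes most like each member. The computations were tested on simulated data. The members and lists were chosen with earlier results of these data known; the split of the Ltf cluster and the mesenchymal-marker cells were examined after seeing the data. Exon lengths and shared 50-base words come from a GENCODE annotation of another build, and promoters from RefSeq.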

Additional observations from a re-analysis of the deposited data

Results flagged for a closer look

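Within the Sox9cKO library, the Cxcl1 level of well A12, 618.0 CPM, stood further below the other 4 wells than is usual for a group of that size, which chance alone does for about 1 in 20 groups. Its cells were the deepest of the library.

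Ccl20 stood at 186.0 CPM (120 to 274) in the 28 cells of an unnamed cluster outside the biliary fraction, beside 23.1 CPM in the biliary fraction. All 25 UMIs came from 3 cells of the Sox9con library, and 14 from a single cell.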

How the results depend on the processing

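Genes that were 2-fold apart or more (371) numbered 220 with cells thinned to 2000 UMIs, 210 over genes with at least 500 UMIs and 295 to 616 with single wells left out, the highest without well D9. The count higher in the Sox9cKO library (206) was 100 thinned, 118 over genes with at least 500 UMIs and 171 to 234 without single wells. The count lower (165) was 93 with DESeq2 size factors, 264 over genes with at least 100 UMIs, 92 over genes with at least 500 UMIs and 113 to 382 without single wells, again highest without D9. The number of members at least 2-fold apart (1) was 2 without the mesenchymal-marker cells, an alternative chosen after seeing the data, and 1 to 2 without single wells. The second was Ccl2 without those cells (1.10) or without A12 (1.03), and Il18 without D9 (-1.02). Cxcl2 changed sign without A11 (-0.0099) and without D9 (-0.050), over a range of -0.050 to 0.16 without single wells, Cxcl16 with DESeq2 size factors (0.036) and Ccl2 when combined within clusters (-0.79), though not when the mesenchymal-marker cells were also left out (0.29). Ccl20 (-0.79 to 0.16) and Cx3cl1 (-0.24 to 0.045), whose intervals include 0 to begin with, also took both signs, Ccl20 with its highest value without D10 and Cx3cl1 with DESeq2 size factors. Csf3 kept its direction in all 19 alternatives, from 0.45 to 1.41, and so did Cxcl1 (-0.61 to -0.25) and Il18 (-1.02 to -0.59). Other scalings shifted the median of all genes by 0.096 (TMM) and 0.15 (DESeq2). At resolution 1 the cluster with the highest CPM held 0.664% of Cxcl1 UMIs in place of 24.3%, 0.95% of Cxcl2 in place of 22.7%, 2.36% of Cxcl5 in place of 20.9%, 2.97% of Csf1 in place of 26.1%, 0.609% of Cx3cl1 in place of 11.3% and 7.17% of Ccl2 in place of 57.6%, because that cluster was then one of 15 to 33 cells. Depth limits Il18, Ccl20 and all counts in the endothelial-like cells. No paired analysis was possible because each group has a single library.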
